A study of Mus musculus with 8 samples.

Results

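The CXC chemokine gene cluster of mouse chromosome 5 was followed in bone marrow derived macrophages, a culture model in which marrow cells are matured into macrophages. The members were 6 neighbouring genes, Ppbp, Pf4, Cxcl1, Cxcl2, Cxcl3 and Cxcl5, and every probe that the array's gene table names for them was taken. Of the 45281 probes on the array, 7 belonged to 5 of these genes, 2 each to Ppbp and Cxcl2 and 1 each to Pf4, Cxcl1 and Cxcl3. Cxcl5, a neutrophil attractant also called LIX, is not analysed here. A gene was tested when a probe stood above background, which means a detection p under 0.05, on at least 2 of the 8 arrays. That left 4 of the 6 members among 12793 tested genes and unnamed probes, because Cxcl3 was not above background on any array.

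All 8 samples were macrophages of C57BL/6 mice, cultured with the growth factor M-CSF over 7 days, and each of the 4 groups held 2 of them. One group received ATRA and OMsup together. OMsup is medium in which omentum, the fatty fold of the abdominal cavity, had been cultured, and ATRA is all-trans retinoic acid at 1 µM. The second group received OMsup, the third ATRA, and the last was left untreated. Treatments lasted 24 h in a serum-free macrophage medium, and it is not stated whether the untreated cells were moved to that medium as well, so medium and treatment cannot be told apart in a comparison with untreated cells. Nor do the labels say whether the 2 samples of a group came from separate cultures or animals, so each p-value measures no more than the spread within these pairs, which can be technical in origin.

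Chemokines of the CXC family are small secreted proteins that steer leukocytes. Cxcl1, Cxcl2, Cxcl3, Cxcl5 and the mature form of Ppbp attract neutrophils through the receptor Cxcr2, whereas Pf4, or platelet factor 4, lacks the motif that binds this receptor and is known for binding heparin. Ppbp, whose mature form is also called CXCL7 or NAP-2, and Pf4 are best known as abundant products of megakaryocytes that platelets store in alpha granules. Macrophages are known to make Cxcl1, Cxcl2 and Cxcl3 quickly after inflammatory stimuli, under control of the transcription factor NF-kB. Retinoic acid acts through nuclear receptors that bind paired short motifs in DNA.

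The promoters are shown so that members with like changes can be set beside the sites they carry. RefSeq's table for build GRCm38.p6 matched 5 of the 6 members, all on the plus strand, and gave 250 bases before and 50 after each annotated start. For Ppbp the whole window is printed, and its capitals mark 2 retinoic acid receptor motifs, AGGTCA, spaced by 5 bases and read on the minus strand. For the others the 120 bases before and 10 after the start are printed, and the capitals mark the run GGGAATTTCC, a well-known form of the NF-kB site.
Ppbp, chr5:90768268-90768567: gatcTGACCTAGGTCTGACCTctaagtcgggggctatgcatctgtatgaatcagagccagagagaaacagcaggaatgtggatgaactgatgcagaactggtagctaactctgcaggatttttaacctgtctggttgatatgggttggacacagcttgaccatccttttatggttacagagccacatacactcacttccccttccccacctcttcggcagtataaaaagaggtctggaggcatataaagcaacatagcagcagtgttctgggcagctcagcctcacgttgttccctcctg
Pf4, chr5:90772315-90772444: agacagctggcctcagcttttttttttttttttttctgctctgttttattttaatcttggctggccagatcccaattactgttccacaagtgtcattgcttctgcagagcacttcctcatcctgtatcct
Cxcl3, chr5:90785981-90786110: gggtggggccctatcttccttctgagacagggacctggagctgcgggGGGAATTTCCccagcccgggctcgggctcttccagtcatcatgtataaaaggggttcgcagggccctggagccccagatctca
Cxcl1, chr5:90891125-90891254: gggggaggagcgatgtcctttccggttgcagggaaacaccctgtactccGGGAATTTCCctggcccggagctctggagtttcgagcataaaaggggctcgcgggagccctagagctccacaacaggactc
Cxcl2, chr5:90903779-90903908: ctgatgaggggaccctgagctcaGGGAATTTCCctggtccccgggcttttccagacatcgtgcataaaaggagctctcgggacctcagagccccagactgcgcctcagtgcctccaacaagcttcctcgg

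The run GGGAATTTCC stood at 73 to 64 bases before the start of Cxcl3, 71 to 62 before Cxcl1 and 97 to 88 before Cxcl2, and in neither the Ppbp nor the Pf4 window. Searched on both strands, it occurred in 29 of all 32817 promoter windows of this length, or 0.0884%. This run was picked as the form of the NF-kB consensus shared by the most member promoters. Its presence in these 3 was thus set by the choice, and its share of all windows is a description only. The broader NF-kB consensus, which overlaps it in the same 3 promoters, was found in 8.46% of all windows. The pair of AGGTCA motifs spaced by any 5 bases lay in Ppbp at 246 to 230 bases before the start, and only 3 windows, 0.00914%, held it. A looser consensus of that repeat, which covers the same bases, was present in 0.323% of all windows and in no other member. Single AGGTCA motifs, which the repeat contains, were in 16.3% of windows and, among the members, in Ppbp alone.

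Of the other motifs searched, ATAAAAGG was in the windows of Ppbp, Cxcl1, Cxcl2 and Cxcl3, against 1.76% of all windows. In Ppbp it lay on the minus strand, 87 to 80 bases before the start. It lay on the plus strand in Cxcl1 at 34 to 27, in Cxcl2 at 57 to 50 and in Cxcl3 at 29 to 22 bases before the start. TATAAA was in those of Ppbp and Cxcl3 (13.6% of all), the AP-1 site TGANTCA in Ppbp (7.81%), the C/EBP site TTGCNNCAA in Cxcl1 (2.08%) and the GATA site AGATAA in Pf4 (11.2%). TATAAA and ATAAAAGG overlap in Cxcl3. No member window held the STAT site TTCCNGGAA (1.15%) or the looser form of the AGGTCA repeat with a spacing of 2 bases (0.472%). In pairwise alignments of the whole windows Cxcl2 and Cxcl3 were the most alike, at 60.29% identical columns, and Cxcl1 matched Cxcl2 at 55.62% and Cxcl3 at 55.49%. Pairs with Ppbp or Pf4 ran from 44.81 to 52.8%. A match describes the letters of these windows, and binding was not measured.

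Array quality was even across groups. Median intensity ran from 92.59 to 98.21, from 16116 to 16784 probes stood above background, and the 2 arrays of a group correlated at 0.9905 to 0.9939 across 12793 genes and probes, which are not independent replicates. The 9 macrophage markers on the array were above background on both arrays of every group, and their summed level, after background correction on a linear scale, was 29914 to 32197 with ATRA+OMsup, 28399 to 31280 with OMsup, 30839 to 32038 with ATRA and 31155 to 32858 in untreated cells. Lyz2 carried most of that sum. The 8 others, summed after the values were seen, came to 11898.6 to 12481.5 with ATRA+OMsup and 10125.4 to 11082.5 with OMsup. With ATRA they came to 12000.4 to 13362.8 and in untreated cells to 12316.9 to 13845.5, so this sum was lowest with OMsup. Of the 9 markers 3 were called higher and 2 lower with ATRA+OMsup against untreated cells. No marker of mesothelial cells or fibroblasts, which the omentum is known to hold, was above background on both arrays of any group. Of 6 B, T and NK cell markers with a probe, 1 was, Nkg7 with OMsup, at intensities of 100.6 to 101.5. Nkg7 was above background on no untreated array and was called in no comparison.

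With both stimuli all 4 tested cluster genes rose against untreated cells. Ppbp and Pf4 were among the genes with the largest rises, and Cxcl1 and Cxcl2 rose by less. Intensities below are as deposited, not background-subtracted, and log2 changes come from background-corrected, quantile-normalized values.

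Ppbp, read by its brighter probe, had intensities of 1652 and 2671 with ATRA+OMsup, 151 and 178 with OMsup, 108.5 and 108.7 with ATRA, and 117.7 and 104.2 in untreated cells. Both arrays with the combination stood far above the other 6, the OMsup arrays came next, and the ATRA and untreated arrays overlapped just above background. The second Ppbp probe gave the same order, with 1302 and 1961, then 138.3 and 149.6, then 98.7 and 100.9, which were not above background, and 109.2 and 104.5 in untreated cells. Over the 8 arrays the normalized values of the Ppbp probes correlated at r = 0.999, a description only, since both read the same RNA.

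Pf4, read by its single probe, had intensities of 7358 and 8503 with ATRA+OMsup, 1424 and 1802 with OMsup, 527 and 456 with ATRA, and 249 and 232 in untreated cells. The 4 groups did not overlap. ATRA+OMsup against OMsup and ATRA against untreated cells passed the test below, and OMsup was not tested against ATRA.

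Cxcl1, the attractant also known as KC, had 193 and 235 with ATRA+OMsup, 104.5 and 108.3 with OMsup, 164 and 161 with ATRA, and 152 and 167 in untreated cells. The combination was highest and OMsup alone lowest, with ATRA and untreated cells together in between. Cxcl2, or MIP-2, followed the same order by its brighter probe, at 192 and 214, then 97.0 and 94.3, then 124 and 127, then 121 and 117 in untreated cells. Neither OMsup value of that probe was above background. By the second Cxcl2 probe the values were 162 and 191 with ATRA+OMsup, 99.97 and 95.17 with OMsup, of which the first was above background, 116 and 123 with ATRA, and 109 and 122 in untreated cells. Cxcl2's probes correlated at r = 0.977 over the 8 arrays. Cxcl3 stayed between 84.6 and 91.4 on all 8 arrays, at background, so its level here is known only as not above background.

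**Figure D1:**
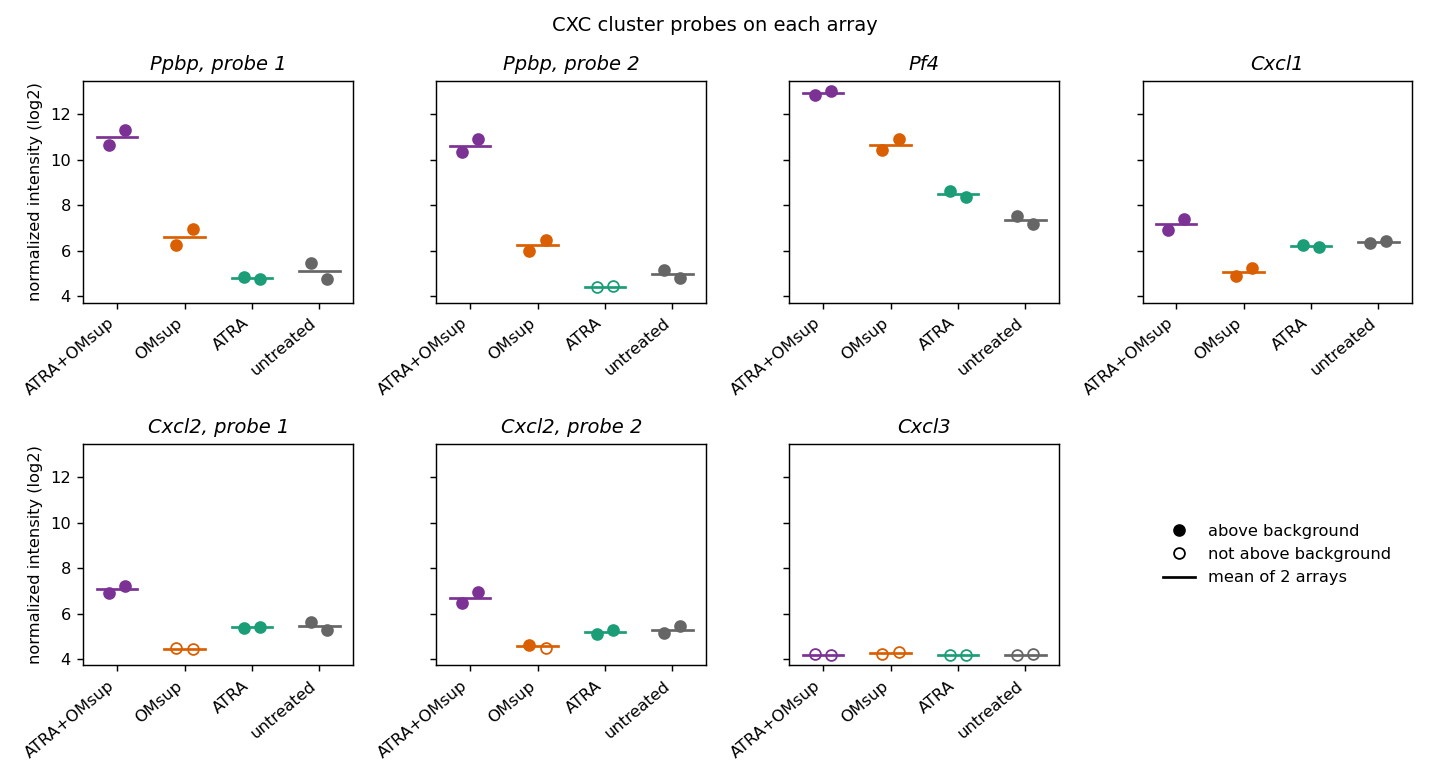
Normalized log2 intensity (vertical axis) of the 7 probes of the cluster on each array, with a panel per probe and the groups in the order ATRA+OMsup, OMsup, ATRA and untreated. Points are single arrays, open where not above background, and lines are means of 2. Ppbp and Pf4 are highest with the combination and next with OMsup, while Cxcl1 and both Cxcl2 probes are lowest with OMsup alone, and all 8 Cxcl3 points are open.

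The first comparison set ATRA+OMsup against untreated cells, in which 15.1% of all tested genes and probes were called (limma, adjusted p under 0.05 by Benjamini and Hochberg's method over all of them) 7.88% higher and 7.26% lower. All 4 tested members were called higher, and their median log2 change was 3.59, beside -0.01 over everything tested. Ppbp was 58.6-fold higher (log2 change 5.87, SE 0.30, adjusted p = 6.37e-07) and Pf4 48.0-fold higher (5.58, SE 0.19, adjusted p = 5.68e-08), ranks 2 and 3 by size among 12793. In bulk RNA, more cells that make a transcript and more transcript per cell cannot be told apart. Cxcl2 was 3.04-fold higher (log2 change 1.61, SE 0.18, adjusted p = 0.000114) and Cxcl1 1.72-fold (0.79, SE 0.21, adjusted p = 0.0253).

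The rises of Ppbp, Pf4 and Cxcl2 against untreated cells kept their calls when any array was left out. That of Cxcl1 did not: its change was 0.74 without untreated replicate 1 (adjusted p = 0.117), 0.83 without untreated replicate 2 (adjusted p = 0.0916) and 0.55 without ATRA+OMsup replicate 2 (adjusted p = 0.176). Without background correction the log2 changes shrank to 4.24 for Ppbp, 5.04 for Pf4, 0.46 for Cxcl1 and 0.80 for Cxcl2, and all calls held.

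OMsup alone split the cluster. Of all tested genes and probes 9.36% were called, 4.68% higher and 4.67% lower, and all 4 tested members were, 2 in each direction. Pf4 was 9.99-fold higher than in untreated cells (log2 change 3.32, SE 0.19, adjusted p = 1.99e-06), and Ppbp 2.82-fold higher (1.497, SE 0.30, adjusted p = 0.00855). Cxcl1 fell by 1.31 on the log2 scale (SE 0.21, adjusted p = 0.00227). By its brighter probe Cxcl2 was not above background with OMsup and at least 1.79-fold lower (adjusted p = 0.00473), a bound taken on the corrected scale against the dimmest signals that were above background on the same arrays.

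The smaller OMsup changes depended on settings. Ppbp lost its call without background correction (log2 change 0.65, adjusted p = 0.0634), in the deposited normalized values (0.68, adjusted p = 0.0552), without untreated replicate 2 (1.14, adjusted p = 0.0942) and without OMsup replicate 2 (1.16, adjusted p = 0.0721). Its second probe did pass, at 1.28 (adjusted p = 0.00707). For Cxcl2 the second probe, above background on 1 of the 2 OMsup arrays and at -0.73, did not pass (adjusted p = 0.0534). Without background correction Cxcl1 and Cxcl2 kept their calls at -0.53 and -0.30. For Cxcl2 this change and that of the second probe are smaller falls than the bound, which applies to the brighter probe on the corrected scale.

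ATRA alone changed 1 of the 4 tested members, beside 4.06% of everything tested in either direction, 2.35% higher and 1.72% lower. Pf4 was 2.24-fold higher than in untreated cells (log2 change 1.16, SE 0.19, adjusted p = 0.00518), though not without untreated replicate 2 (0.99, adjusted p = 0.0648) or ATRA replicate 1 (1.03, adjusted p = 0.0625). No difference was called for Ppbp, at -0.33 with a 95% interval from -0.98 to 0.33 (adjusted p = 0.755), for Cxcl1, at -0.16 from -0.62 to 0.29 (adjusted p = 0.847), or for Cxcl2, at -0.06 from -0.45 to 0.33 (adjusted p = 0.947). These intervals leave room for changes of those sizes either way. The second Ppbp probe, above background on neither ATRA array, stood at -0.54 with a 95% interval from -1.07 to -0.011. It was not called either (adjusted p = 0.377).

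Added to OMsup, ATRA raised all 4 tested members, in a comparison where 4.49% of everything tested was called 2.73% higher and 1.77% lower. Ppbp was 20.8-fold higher with ATRA+OMsup than with OMsup alone (log2 change 4.38, SE 0.30, adjusted p = 1.64e-05), rank 3 by size. Pf4 was 4.80-fold higher (2.26, SE 0.19, adjusted p = 4.86e-05) and Cxcl1 4.26-fold (2.09, SE 0.21, adjusted p = 0.000161). Cxcl2 was at least 5.45-fold higher by its brighter probe (adjusted p = 1.67e-05), which OMsup left not above background. Each of these calls held under every alternative run, arrays left out included, though Ppbp, Cxcl1 and Cxcl2 came to log2 changes of 3.59, 1.00 and 1.10 without background correction. The second probe of Ppbp rose by 4.37 (adjusted p = 5.61e-06). That of Cxcl2, above background on 1 of the 2 OMsup arrays, rose by 2.14 (adjusted p = 0.000129), or 4.41-fold, which is less than the bound of the brighter probe.

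Added to ATRA, OMsup raised all 4 as well, where 10.4% of everything tested was called, 4.98% higher and 5.42% lower. Ppbp was 73.4-fold higher with ATRA+OMsup than with ATRA alone by its brighter probe (log2 change 6.20, adjusted p = 6.42e-07), and at least 63.7-fold by the other. Pf4 was 21.4-fold higher (4.42, adjusted p = 3.85e-07), Cxcl2 3.18-fold (1.67, adjusted p = 0.00015) and Cxcl1 1.93-fold (0.95, adjusted p = 0.0125). The Cxcl1 call ended without ATRA replicate 1 (1.00, adjusted p = 0.0581), ATRA replicate 2 (0.90, adjusted p = 0.0962) or ATRA+OMsup replicate 2 (0.71, adjusted p = 0.095). Without background correction the changes of Ppbp, Cxcl1 and Cxcl2 were 4.34, 0.55 and 0.82, all still called, and that of Ppbp is then a smaller fold than the bound of its second probe, which holds on the corrected scale.

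**Figure D2:**
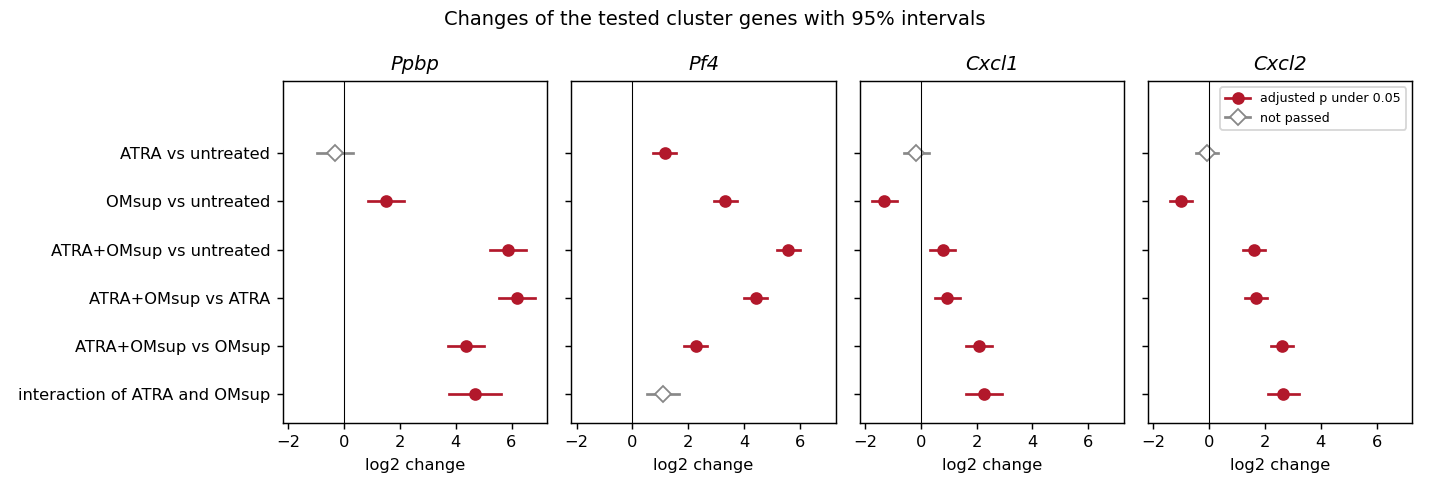
Log2 changes (horizontal axis) of the 4 tested cluster genes in the 6 comparisons, with 95% intervals. Red points passed at an adjusted p under 0.05 and open points did not. All 4 genes lie right of 0 in the 3 comparisons of ATRA+OMsup with another group, while Cxcl1 and Cxcl2 lie left of 0 with OMsup against untreated.

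Whether ATRA acted differently with OMsup than without it was tested as an interaction, which subtracts the change by ATRA in cells without OMsup from its change in cells with it. Only 31 of 12793 genes and probes passed, 0.242%, of which 21, or 0.164%, were positive and 10, or 0.0782%, negative, and 3 of the 4 tested members were among these. Ppbp had the largest interaction of all tested, at 4.70 on the log2 scale (SE 0.42, adjusted p = 0.00164). Cxcl2, rank 5 by size, stood at 2.66 (SE 0.25, adjusted p = 0.00164), fitted with OMsup values at background, and Cxcl1, rank 9, at 2.25 (SE 0.29, adjusted p = 0.00783). Pf4 had 1.10 (95% interval 0.52 to 1.68), which did not pass over all genes (adjusted p = 0.223).

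The single changes of Pf4 sum to 4.48 on the log2 scale, and the combination gave 5.58. For Ppbp the single changes sum to 1.17 against 5.87 with both. For Cxcl1 and Cxcl2 the sums were -1.47 and, with OMsup values at background, -1.06, while the combination gave 0.79 and 1.61, so genes that OMsup alone lowered were above untreated cells when ATRA was present too. In deposited intensity Ppbp gained 51.4 units from the single stimuli added together and 2050 from both, and Pf4 gained 1623 and 7690.

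The interactions of Ppbp and Cxcl2 were called under every alternative run, and the second probes gave 4.91 for Ppbp (adjusted p = 0.000413) and 2.22 for Cxcl2 (adjusted p = 0.00913). Cxcl1's ended without untreated replicate 2 (2.20, adjusted p = 0.0655) or ATRA replicate 2 (2.20, adjusted p = 0.0524). Without background correction Ppbp, Cxcl1 and Cxcl2 had 3.69, 1.08 and 1.13, still called.

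**Figure D3:**
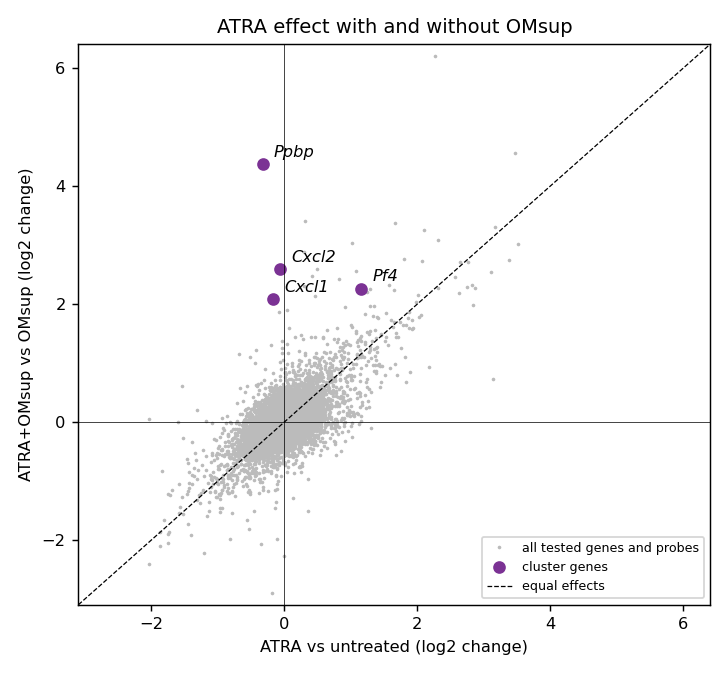
The ATRA effect with OMsup (ATRA+OMsup vs OMsup, log2, vertical axis) against the ATRA effect without it (ATRA vs untreated, log2, horizontal axis) for all 12793 tested genes and probes in grey and the 4 cluster genes in purple. The dashed line marks equal effects. Ppbp, Cxcl2 and Cxcl1 lie near 0 on the horizontal axis and at 4.38, 2.60 and 2.09 on the vertical one, and Pf4 lies nearer the line.

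Within the cluster the patterns differed by pair. Over the 8 arrays, which share their groups, Ppbp and Pf4 correlated at r = 0.931 and Cxcl1 and Cxcl2 at r = 0.935, while Pf4 and Cxcl1 correlated at r = 0.252. The other pairs were Ppbp with Cxcl2 at r = 0.757, Ppbp with Cxcl1 at r = 0.532 and Pf4 with Cxcl2 at r = 0.527. In RefSeq's order Cxcl5, Ppbp, Pf4, Cxcl3, Cxcl15, Cxcl1 and Cxcl2 follow each other. Cxcl15, between Cxcl3 and Cxcl1, was above background on no array.

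Genes flanking the cluster were mostly at background. Of 13 listed chromosome 5 neighbours 12 had a probe and 2 were tested, the growth factor gene Epgn and the ubiquitin ligase gene Rchy1. Limma called neither in any comparison, and neither had an unadjusted p under 0.05. With ATRA+OMsup against untreated cells their log2 changes were 0.12 (adjusted p = 0.677) and 0.06 (adjusted p = 0.886).

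The tested named genes whose pattern over the 8 arrays was most like each member's were found by Pearson's r of the normalized log2 values. Nearest to Ppbp came Selp (P-selectin, r = 0.995), Prtn3 (proteinase 3, r = 0.990) and Sesn2 (r = 0.989). For Pf4 they were Nol3 (r = 0.995), the receptor gene Notch1 (r = 0.992) and the leukotriene receptor gene Cysltr1 (r = 0.988). Cxcl1 was nearest to Lipt2 (r = 0.968), the scavenger receptor gene Cd163 (r = 0.937) and Cxcl2 (r = 0.935). Lipt2, above background on 6 arrays, stayed close to background, with group means from 4.47 to 4.84 only. Cxcl2 was nearest to Sp6 (r = 0.947), which was above background on 2 arrays only, Marco (r = 0.944), another scavenger receptor, and Dip2c (r = 0.943).

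Ppbp and Pf4 belong to a list of 14 megakaryocyte and platelet alpha-granule genes, of which 11 were tested. With ATRA+OMsup against untreated cells 6 of the 11 rose, 3 fell and 2 did not pass, with a median log2 change of 0.92 beside -0.01 over everything tested, and the 2 members are among the risers. Without them, a list trimmed after the values were seen, 4 of 9 rose and 3 fell, with a median of -0.05. Selp, the adhesion receptor that platelets and endothelium move to their surface, had intensities of 176 to 213 with ATRA+OMsup, 105 to 108 with OMsup, 96.4 to 100.7 with ATRA and 96.5 to 96.7 in untreated cells. The last 4 arrays were not above background, and Selp rose at least 5.07-fold (adjusted p = 8.05e-06). Such bounds are on the background-corrected scale. Thbs1, thrombospondin, rose at least 3.12-fold (adjusted p = 0.000235) and the coagulation factor gene F5 at least 1.98-fold (adjusted p = 0.000144). Without background correction the log2 changes were 1.03 for Selp, 0.76 for Thbs1 and 0.50 for F5, all called, which are smaller folds than those bounds.

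Some genes on that list moved the other way. Pdgfb, a growth factor gene, fell by 2.11 (adjusted p = 5.87e-05), and Vwf, the von Willebrand factor gene, fell by 1.11 (adjusted p = 0.00326). Srgn, the granule proteoglycan serglycin, rose by 0.92 (adjusted p = 0.031) and Tgfb1 fell by 0.95 (adjusted p = 0.0384), but neither call survived every array left out. Srgn was at 0.59 without untreated replicate 2 (adjusted p = 0.259) and 0.77 without ATRA+OMsup replicate 2 (adjusted p = 0.157). Tgfb1 was at -1.10 without untreated replicate 1 (adjusted p = 0.0804), -0.79 without untreated replicate 2 (adjusted p = 0.236) and -0.64 without ATRA+OMsup replicate 2 (adjusted p = 0.229), and its call also ended without the intensity trend (adjusted p = 0.0535).

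With OMsup against untreated cells 3 of the 11 rose and 1 fell, led by Pf4 and by Thbs1, which was at least 3.28-fold higher (adjusted p = 0.00033). Without background correction that change of Thbs1 was 0.81 on the log2 scale, still called but a smaller fold than the bound. With ATRA alone Pf4 rose and Pdgfb fell by 1.17 (adjusted p = 0.0095), a call that ended without untreated replicate 1 (-1.24, adjusted p = 0.0605), untreated replicate 2 (-1.11, adjusted p = 0.0953) or ATRA replicate 2 (-1.02, adjusted p = 0.107). The interaction passed for 2 of the 11, Ppbp and Selp. Selp's was 1.95 (adjusted p = 0.0099) and ended when any single untreated or ATRA array or OMsup replicate 1 was left out, with adjusted p from 0.0524 to 0.0848.

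Lineage markers were read beside these rises. Of 12 megakaryocyte and platelet markers with a probe, 3, 4, 5 and 4 were above background on both arrays with ATRA+OMsup, OMsup, ATRA and in untreated cells. Their summed level was 443 to 533 with ATRA+OMsup, 530 to 655 with OMsup, 543 to 646 with ATRA and 798 to 842 in untreated cells. Vwf carried most of that sum, and the 11 others, a sum taken after the values were seen, came to 163 to 183 with ATRA+OMsup, 155 to 159 with OMsup, 134 to 141 with ATRA and 127 to 139 in untreated cells. The sum without Vwf was thus highest with the combination and the sum with it highest in untreated cells. Of those 11 only Nfe2 and Treml1 were above background on both arrays with the combination, so the other markers in that sum were near background. Among defining markers Gp1bb, Gp5, Gp6 and Gata1 were above background on no array, and Itga2b and Itgb3 on 1 OMsup array each. Clec1b was above background on 2 ATRA arrays and 1 untreated array, Gp9 on 3 arrays, Tubb1 on 7 and Treml1 on 8. Their part in the result was not tested. On that list Nfe2, a transcription factor gene of the lineage, rose with ATRA+OMsup against untreated cells by 0.95 (adjusted p = 0.00392), and Vwf fell as given above.

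The summed level of 12 granulocyte markers was 2694 to 3078 with ATRA+OMsup, 2094 to 2679 with OMsup, 960 to 1131 with ATRA and 1538 to 1935 in untreated cells. Without Prtn3, left out after the values were seen, it was 1559 to 1857, 1990 to 2590, 934 to 1092 and 1522 to 1906 in the same groups, highest with OMsup. Prtn3, a protease of myeloid precursors and neutrophils, had intensities of 1209 to 1254, 174 to 177, 127 to 138 and 110 to 119 in the same groups. It rose with the combination by 4.96 against untreated cells (adjusted p = 1.87e-07) and had an interaction of 3.10 (adjusted p = 0.00164). Of 10 granulocyte markers tested in that comparison 2 were called higher, Prtn3 among them, 2 were called lower and 6 did not pass. The granule gene Ltf fell by 1.31 with the combination against untreated cells (adjusted p = 0.00375). Camp, above background on 1 of the 2 arrays with the combination, was called lower too (adjusted p = 0.0153). The part of these markers in the result was not tested.

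**Figure D4:**
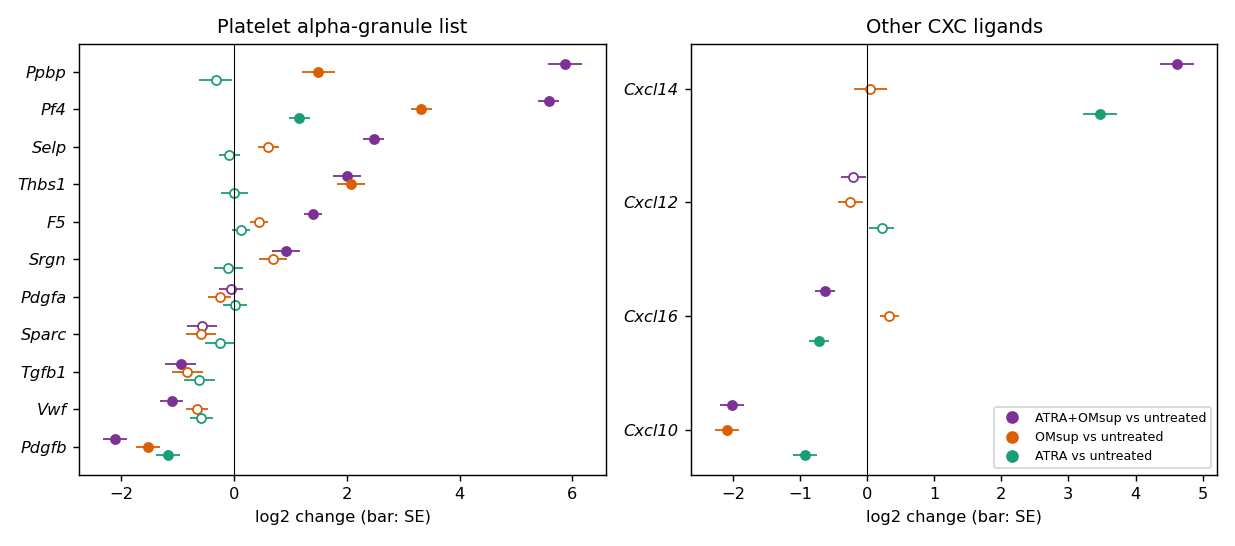
Log2 changes against untreated cells (horizontal axis, bars of 1 SE) of the tested alpha-granule genes on the left and of the other tested CXC ligands on the right, for ATRA+OMsup, OMsup and ATRA. Filled points passed at an adjusted p under 0.05. Ppbp, Pf4, Selp, Thbs1, F5 and Srgn lie right of 0 with ATRA+OMsup, and Vwf, Tgfb1 and Pdgfb lie left of it.

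Other CXC ligands did not share one direction. Of 9 listed 4 were tested, and with ATRA+OMsup against untreated cells 1 rose and 2 fell. Cxcl14, an attractant of monocytes and dendritic cells, had intensities of 488 to 706 with ATRA+OMsup, 91.9 to 99.5 with OMsup, 304 to 405 with ATRA and 92.2 to 99.0 in untreated cells. It rose at least 21.7-fold with the combination (adjusted p = 1.07e-06) and at least 9.83-fold with ATRA alone (adjusted p = 4.14e-05), both against untreated cells and on the corrected scale. Without background correction its log2 changes were 2.64 and 1.71, still called but smaller folds than those bounds. ATRA alone gave no call for Ppbp, Cxcl1 or Cxcl2.

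Cxcl10, the interferon-induced attractant of T cells, fell by 2.02 with ATRA+OMsup (adjusted p = 2.7e-05) and, where 1 of the 2 OMsup arrays was above background, fell by 2.09 with OMsup (adjusted p = 3.52e-05). Cxcl16, a membrane-bound ligand, fell by 0.96 with ATRA+OMsup against OMsup (adjusted p = 0.00284), where all 4 tested members rose. Under ATRA alone against untreated cells Cxcl16 fell by 0.72 (adjusted p = 0.0176) and Cxcl10 by 0.93 (adjusted p = 0.014). Both of these ATRA calls ended when certain single arrays were left out. In the interaction limma called 0 of the 4 other ligands, and 2 had an unadjusted p under 0.05.

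Receptors were mostly at background. Cxcr2, through which most of the member chemokines act, was above background on none of the 8 arrays, at intensities of 82.3 to 98.6, and 2 of the 8 listed receptors were tested. Cxcr4, the receptor of Cxcl12, rose by 1.16 with ATRA+OMsup (adjusted p = 0.000673) and by 1.32 with OMsup (adjusted p = 0.000463), both against untreated cells. Cxcr3, the other tested receptor, was above background on both arrays of every group and was called in no comparison.

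NF-kB subunits and their feedback regulators, 13 of 14 tested, were read because of the sites in the Cxcl1 and Cxcl2 promoters. With ATRA+OMsup against untreated cells 2 rose and 2 fell, with a median of -0.08. Bcl3, an atypical I-kappa-B protein, rose by 1.25 (adjusted p = 0.00541), and Ikbke, a kinase gene, by 0.93 (adjusted p = 0.00503). With OMsup against untreated cells 1 rose and 3 fell. Cxcl1 and Cxcl2 fell there as well, and among the list Tnfaip3, a feedback inhibitor known as A20, fell by 1.09 (adjusted p = 0.0135), Nfkbiz, another I-kappa-B protein, fell by 1.02 (adjusted p = 0.0149) and Ikbke fell by 0.86 (adjusted p = 0.012), while Bcl3 rose by 1.23 (adjusted p = 0.0093).

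All of these OMsup calls ended when 1 or more single arrays were left out. Without OMsup replicate 1 Nfkbiz was at -0.72 (adjusted p = 0.107), Ikbke at -0.70 (adjusted p = 0.0897) and Bcl3 at 0.97 (adjusted p = 0.0743), and without OMsup replicate 2 Tnfaip3 was at -0.98 (adjusted p = 0.0931). Without untreated replicate 1 Nfkbiz was at -0.87 (adjusted p = 0.124), Tnfaip3 at -0.73 (adjusted p = 0.104) and Bcl3 at 1.25 (adjusted p = 0.0555). Without untreated replicate 2 Ikbke was at -0.76 (adjusted p = 0.118) and Bcl3 at 1.21 (adjusted p = 0.0682). Ikbke rose by 1.80 with ATRA+OMsup against OMsup (adjusted p = 0.000189), the only one of the 13 called there, beside the rises of Cxcl1 and Cxcl2. Ikbke also rose by 1.34 with ATRA alone against untreated cells (adjusted p = 0.00198), where neither Cxcl1 nor Cxcl2 was called. In the interaction limma called 0 of the 13, and 1 had an unadjusted p under 0.05.

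Regulators of chemokine mRNA decay, 7 of 8 tested, gave a single call over the 6 comparisons. Zfp36, whose protein tristetraprolin speeds the decay of such transcripts, fell by 0.55 with ATRA against untreated cells (adjusted p = 0.0409). Its call ended under 9 alternatives, such as without ATRA replicate 2 (-0.45, adjusted p = 0.357). With ATRA+OMsup against untreated cells limma called 0 of the 7, and 0 had an unadjusted p under 0.05.

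Cytokines and chemokines that mobilise neutrophils and monocytes, 8 of 13 tested, did not move as one. With ATRA+OMsup against untreated cells 2 rose and 3 fell. Tnf had intensities of 96.8 to 104.4 with ATRA+OMsup, 109 to 125 with OMsup, 167 to 171 with ATRA and 261 to 285 in untreated cells. With the combination, where 1 of the 2 arrays was above background, it fell by 2.96 (adjusted p = 2.9e-06). Ccl4 fell by 1.45 (adjusted p = 0.000185), while Ccl7, a monocyte attractant, rose by 1.44 (adjusted p = 0.000822).

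Il1b, the interleukin 1 beta gene, ran against the cluster when ATRA was added to OMsup. Its intensities were 109.3 to 109.7 with ATRA+OMsup, 212 to 224 with OMsup, 96.9 to 100.8 with ATRA and 118 to 131 in untreated cells. It fell by 2.21 with ATRA+OMsup against OMsup (adjusted p = 8.08e-05), where Ccl7 rose by 1.62 (adjusted p = 0.00113) and Ccl2 at least 2.07-fold (adjusted p = 0.000301). Without background correction the log2 change of Ccl2 there was 0.47, still called but a smaller fold than that bound. Under ATRA alone against untreated cells Il1b was called lower too (adjusted p = 0.00609), with neither ATRA array above background. Tnf fell there by 1.29 (adjusted p = 0.00348) and Ccl7 rose by 1.02 (adjusted p = 0.0203). Ccl2, not above background in untreated cells, was called higher (adjusted p = 0.0118). The ATRA calls of Il1b, Ccl7 and Ccl2 ended when certain single arrays were left out. With OMsup against untreated cells Il1b rose by 1.72 (adjusted p = 0.00028), Tnf fell by 2.15 (adjusted p = 4.83e-05), Ccl3 fell by 2.01 (adjusted p = 4.87e-06) and Ccl4 fell by 1.75 (adjusted p = 8.87e-05). In the interaction limma called 0 of the 8, and 3 had an unadjusted p under 0.05.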

How the data were processed

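Per the labels' protocols, RNA was purified on RNeasy micro columns with DNase and made into biotinylated cRNA for Illumina mouse arrays. The deposited table gives each probe's intensity, on a linear scale and not background-subtracted, and, per the file headers, a detection p-value. A deposited normalized matrix, an alternative here, holds linear intensity. Software for those tables: not given in the sources used here. Symbols came from the platform's probe table, updated by gene number.

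Values were normalized with neqc in limma 3.58.1 (R 4.3.3; offset 16, negative controls inferred from detection p-values) to log2. Each symbol kept its brightest detected probe, and group means were fitted with lmFit and eBayes with an intensity trend, with p-values adjusted over all 12793 genes and probes. The pipeline was tested on simulated data. Precision is limited by 2 arrays a group. Windows were aligned with Biopython 1.88. Of each list up to 3 called genes with the largest changes in a comparison were eligible to be named, and those whose calls held were preferred. Members, lists and list genes were chosen with earlier results of these data known.

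The alternatives were no background correction, an offset of 50, arrays scaled to a common median, the deposited matrix, no or a stricter detection filter, single probes, no trend, a replicate block and each array left out.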

Additional observations from a re-analysis of the deposited data

Results flagged for a closer look

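The effect of ATRA differed by the presence of OMsup in 3 cluster genes, by the test of the difference itself (limma interaction, adjusted over 12793 genes and probes). Ppbp, with a log2 change of 4.38 by ATRA in the presence of OMsup and -0.33 without it, differed by 4.70. Cxcl2, at 2.60 and -0.06, differed by 2.66, fitted with OMsup values of its brighter probe that were not above background on either array. Its second probe, above background on 1 of the 2, had an interaction of 2.22. Cxcl1, at 2.09 and -0.16, differed by 2.25.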

How the results depend on the processing

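Under alternatives that kept all arrays, 212 log2 changes of the members kept their direction and their side of the threshold, 3 lost a call, as given above for Ppbp and Cxcl2 with OMsup, and 1 changed sign. Arrays scaled to a common median turned Cxcl2 with ATRA against untreated cells to 0.051. Leaving out untreated replicate 1 turned the same change to 0.10 and that of Ppbp to 0.027. With each array left out in turn these changes ran from -0.22 to 0.10 and from -0.67 to 0.027. None of the 3 was called. For the called changes of listed genes followed singly, 85 values no longer passed with an array left out, against 515 that did, and 19 under the other alternatives, against 656, and none changed sign. Scaling moved the median of all genes by over 0.1 only with ATRA+OMsup against ATRA, to -0.13. The cause was not tested.

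The replicate block moved the counts called to 924 with ATRA against untreated cells, 899 with ATRA+OMsup against OMsup and 65 in the interaction, from 520, 575 and 31, and changed no call of a member. Deviations of same-numbered samples correlated at 0.43 to 0.53 between the 3 treated groups and at -0.01 to 0.21 between these and untreated cells. Not every pair was over 0.1 and the labels give no shared source, so the fit without the block was kept. With each array left out, the counts ran from 211 to 594 (ATRA), 622 to 1330 (OMsup) and 1117 to 1911 (ATRA+OMsup) against untreated cells, 663 to 1289 with ATRA+OMsup against ATRA, 318 to 489 against OMsup, and 15 to 32 in the interaction. Members called ran from 0 to 1 with ATRA against untreated cells. In the interaction they ran from 2 to 3.

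Signal near background limits Cxcl1, Cxcl2, Cxcl3 and Ppbp outside the combination, and the size of their changes depends on the background correction. The same holds for listed genes near background such as Selp, Thbs1, F5, Cxcl14 and Ccl2.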
